A study of Mus musculus with 3 samples.

Results

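The Hox genes of all 4 clusters were followed through cultures of mouse tail-tip fibroblasts that had been exposed to reprogramming factors for 8 days. The set held 38 genes (10 of the Hoxa, 10 of the Hoxb, 9 of the Hoxc and 9 of the Hoxd cluster) among 20825 genes on the array, chosen as the genes named Hox and matched through the RefSeq accession of each probe. Each gene was read from its brightest probe, and 34 of the 38 had a single probe. The clusters lie on chromosomes 6 (Hoxa), 11 (Hoxb), 15 (Hoxc) and 2 (Hoxd).

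The 3 groups were measured with 1 one-colour oligonucleotide array each, so n = 1 throughout. The first was made from tail-tip fibroblasts of 22-month-old p16-/- mice (old p16-/-), the next from 22-month-old wild-type mice (old WT) and the last from 2-month-old wild-type mice (young WT). The cells of all 3 groups had received Oct4, Sox2, Klf4 and c-Myc, and total RNA was taken on day 8, when cultures hold reprogramming intermediates. No array of cells without the factors was analysed here, and the strain and the number of pooled animals are not given in the sources used here. The design text speaks of 2 independent experiments with different donors. p16, a product of Cdkn2a, blocks cyclin-dependent kinases, restrains the cell cycle and accumulates in ageing cells. The comparisons ask how the loss of p16 bears on old cells and how donor age bears on wild-type cells at this stage.

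Hox genes encode homeodomain transcription factors that give cells their position along the body axis. Their order along a cluster matches the order in which they act from head to tail, from paralogue group 1 at the anterior end to group 13 at the posterior end. They bind DNA together with the TALE homeodomain proteins of the PBX, MEIS and PKNOX families, answer to retinoic acid, and are held silent by Polycomb and kept active by trithorax complexes. Adult fibroblasts keep the Hox pattern of the body site they came from, and the tail is a posterior site.

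The members furthest apart between the arrays were Hoxd4, Hoxd8 and Hoxd9, and their promoters are shown because these 3 genes carry the largest differences below. Those of Hoxd3 and Hoxd10, neighbours in the same cluster that no array showed well above background, are shown for comparison. Each sequence runs from 250 bases before to 50 bases after the gene's start in RefSeq on GRCm38.p6, plus strand. The positions are chr2:74721728-74722027 for Hoxd4, chr2:74704365-74704664 for Hoxd8, chr2:74697513-74697812 for Hoxd9, chr2:74711743-74712042 for Hoxd3 and chr2:74691641-74691940 for Hoxd10. Capitals mark AGGTCA, the core letters that retinoic acid receptors bind, on either strand.
Hoxd4: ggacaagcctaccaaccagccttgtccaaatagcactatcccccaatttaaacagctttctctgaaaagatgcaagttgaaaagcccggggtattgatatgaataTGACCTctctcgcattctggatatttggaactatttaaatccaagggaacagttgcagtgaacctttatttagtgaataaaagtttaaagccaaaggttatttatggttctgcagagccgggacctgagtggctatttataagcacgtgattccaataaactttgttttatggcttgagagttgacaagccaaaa
Hoxd8: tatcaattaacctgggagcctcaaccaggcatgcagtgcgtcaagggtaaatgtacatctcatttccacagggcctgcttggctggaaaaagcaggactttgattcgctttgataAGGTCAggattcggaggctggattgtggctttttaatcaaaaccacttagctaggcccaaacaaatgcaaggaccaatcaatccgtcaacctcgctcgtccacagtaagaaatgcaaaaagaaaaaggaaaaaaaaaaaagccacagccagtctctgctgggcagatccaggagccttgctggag
Hoxd9: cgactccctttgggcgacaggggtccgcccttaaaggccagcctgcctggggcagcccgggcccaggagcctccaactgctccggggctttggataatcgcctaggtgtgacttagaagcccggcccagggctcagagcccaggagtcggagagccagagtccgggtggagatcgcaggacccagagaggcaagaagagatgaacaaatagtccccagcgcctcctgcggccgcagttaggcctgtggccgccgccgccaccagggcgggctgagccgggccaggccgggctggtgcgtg
Hoxd3: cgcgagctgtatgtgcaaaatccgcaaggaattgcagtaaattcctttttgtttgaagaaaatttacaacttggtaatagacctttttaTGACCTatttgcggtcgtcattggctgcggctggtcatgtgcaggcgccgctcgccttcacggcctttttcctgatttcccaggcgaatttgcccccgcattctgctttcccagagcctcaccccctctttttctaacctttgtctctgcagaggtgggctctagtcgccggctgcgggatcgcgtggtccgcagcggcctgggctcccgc
Hoxd10: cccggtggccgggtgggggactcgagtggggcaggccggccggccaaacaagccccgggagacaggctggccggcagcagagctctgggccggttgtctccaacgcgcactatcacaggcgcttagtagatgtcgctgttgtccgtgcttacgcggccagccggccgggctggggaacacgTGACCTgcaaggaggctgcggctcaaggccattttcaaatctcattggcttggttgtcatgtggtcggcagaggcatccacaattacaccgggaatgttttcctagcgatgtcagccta

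The letters AGGTCA were found once in the windows of Hoxd4, Hoxd8, Hoxd3 and Hoxd10 and not in that of Hoxd9, so the letters did not separate the genes that differed from those at background. Counted from 1 at the 5′ end, they begin at base 106 in Hoxd4, 116 in Hoxd8, 90 in Hoxd3 and 182 in Hoxd10. RefSeq promoters were matched for 22 of the 38 members (24 windows). Of these, 7 (29.2%) held AGGTCA on either strand, against 5340 of 32851 windows of all genes (16.3%). The PBX-HOX motif TGATTNAT was in 2 Hox windows (8.33%, against 3.22% of all), the MEIS motif TGACAG in 2 (against 19.2%) and the homeodomain core TAATTA in 2 (against 5.29%). None of these 3 was in the 5 windows shown. The windows of Hoxd4 and Hoxd8 were poor in guanine and cytosine, at 39.7% and 46.7% with 4 and 6 CG dinucleotides. Those of Hoxd9, Hoxd3 and Hoxd10 had 68.3%, 54.0% and 62.7% with 20, 20 and 22 CG dinucleotides, beside medians of 52.7% and 7 over all windows.

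Values are processed signals, the background-subtracted linear spot intensity of the scanner software. Ratios are differences of log2 signal after each array's 75th percentile was subtracted (2243, 2255 and 2338 on old p16-/-, old WT and young WT). A gene entered a comparison if the software marked 1 or both of the arrays compared as well above background for it. Where only 1 was so marked, the value is called a bound, with the dim array entered at no less than its lowest level called above background. That level is no fixed detection limit, so a bound is no guaranteed minimum. Another background correction, described at the end, gave Hoxd9 1.11 in place of a bound of 1.88 for old p16-/- over old WT. With n = 1 no difference has a replicate check and no test was possible, so the text goes by size: 2-fold or more (log2 of 1 or above, or -1 or below), and a smaller size of 0.5 was added after the data were seen. The spread that the arrays do show is that between spots of the same probe: 399 probes had 10 spots each, and the SD of their log2 signals had a median of 0.0463, 0.045 and 0.0463 at signals of 1000 or more on old p16-/-, old WT and young WT, and 0.150, 0.152 and 0.171 at signals under 100. Levels are compared between arrays for each probe. The levels of different genes are not compared, and dim probes of other genes serve only to show how high a stray spot can read.

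Of the 38 Hox genes, 23 (60.5%) were well above background on all 3 arrays, 6 on some and 9 on none, beside 12887 of 20825 genes (61.9%) on all 3. By array, 28 were above background on old p16-/-, 28 on old WT and 23 on young WT. The clusters differed in this: 9 of 10 Hoxb genes, 7 of 10 Hoxa genes and 7 of 9 Hoxc genes were above background on all 3 arrays, but 0 of 9 Hoxd genes. In the Hoxd cluster 4 genes were above background on some array and 5 (Hoxd1, Hoxd3, Hoxd10, Hoxd11 and Hoxd12) on none. The other 4 that no array detected were Hoxa2, Hoxb1, Hoxc5 and Hoxc8. Both group 1 genes of the set were among them, whereas group 13, which patterns the most posterior structures, had 3 of its 4 members above background on all arrays (Hoxa13, Hoxb13 and Hoxc13) and Hoxd13 on old WT.

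**Figure D1:**
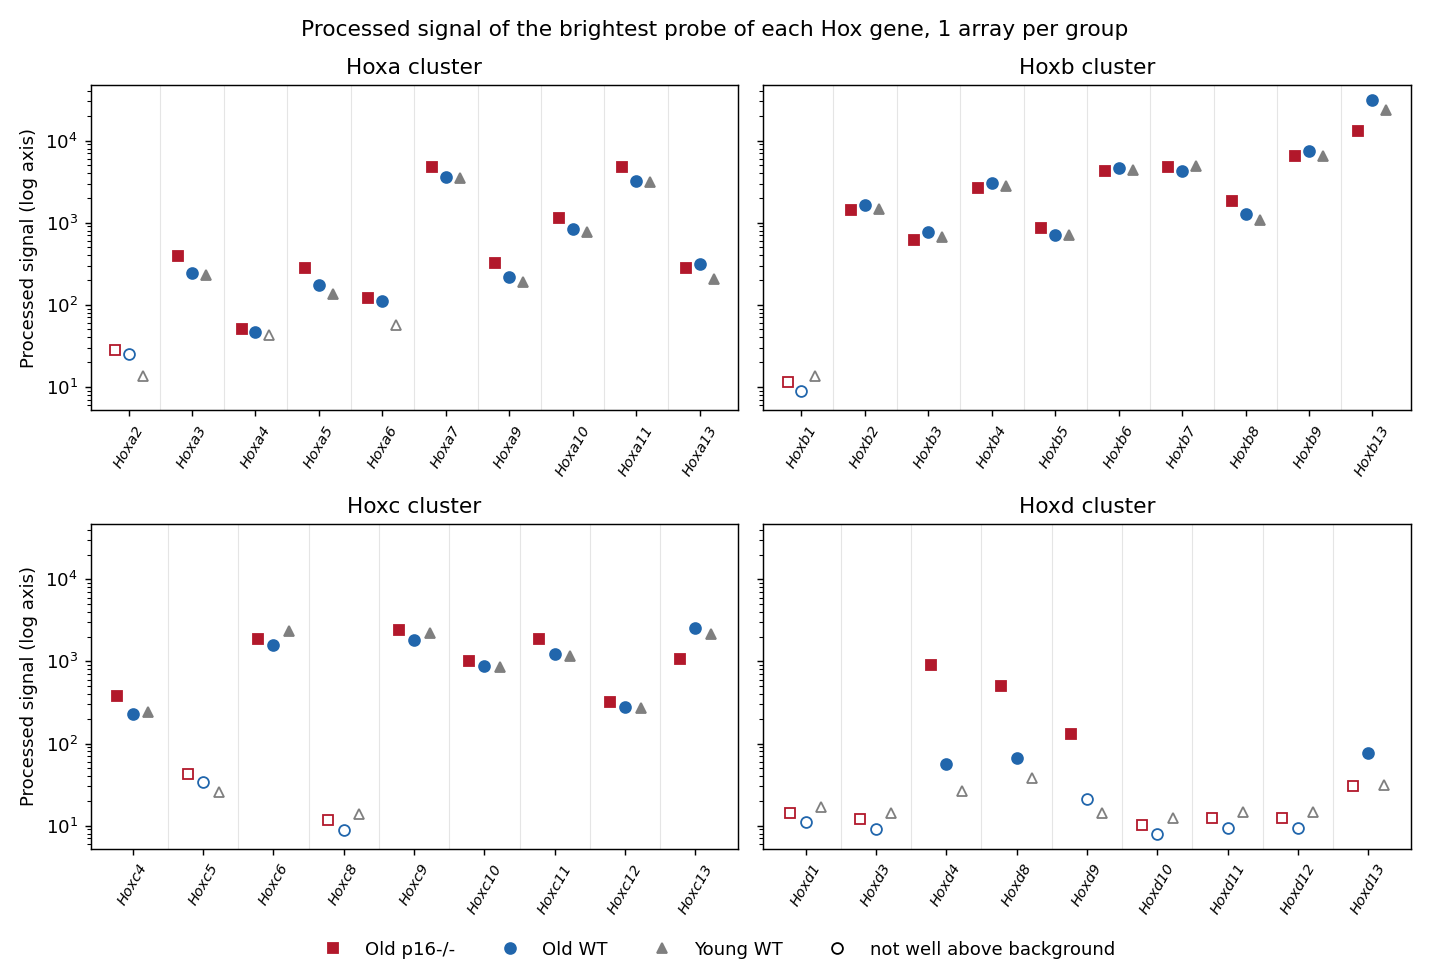
Processed signal (log axis) of each Hox gene on the 3 arrays, with 1 panel per cluster, a square for old p16-/-, a circle for old WT and a triangle for young WT; open symbols are not well above background, and there are no error bars because each group is 1 array. Hoxd4, Hoxd8 and Hoxd9 stand out on old p16-/- (902, 499 and 131), Hoxb13 and Hoxc13 lie lowest there, and heights of different genes cannot be compared because each has its own probe.

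Between old p16-/- and old WT, 29 Hox genes were counted. Hoxd4, Hoxd8 and Hoxd9 were at least 2-fold higher on old p16-/- (3 genes, beside 5.97% of the 14695 genes counted) and Hoxb13 and Hoxc13 at least 2-fold lower (2 genes, beside 6.51%). At a log2 ratio of 0.5 or more stood 10 (beside 13.6% of all genes), and at -0.5 or less stood 3 (beside 14.4%). The median log2 ratio of the 29 was 0.27, against 0.03 over all genes counted. Of the 27 measured on both arrays, 19 lay above 0 (70.4%) and 8 below, beside 7438 above (56.0%) and 5854 below of 13292 genes. Medians by cluster were 0.45 for 9 Hoxa genes, -0.16 for 9 Hoxb genes and 0.27 for 7 Hoxc genes. For the Hoxd cluster 4 genes were counted, 2 of them bounds that passed only through the array where the gene was high. By position, the medians were 0.13 for 7 genes of groups 1 to 4, 0.30 for 9 of groups 5 to 8 and 0.22 for 13 of groups 9 to 13. The median of groups 1 to 4 turned to -0.21 over the 2 of its genes that reached a signal of 1000.

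**Figure D2:**
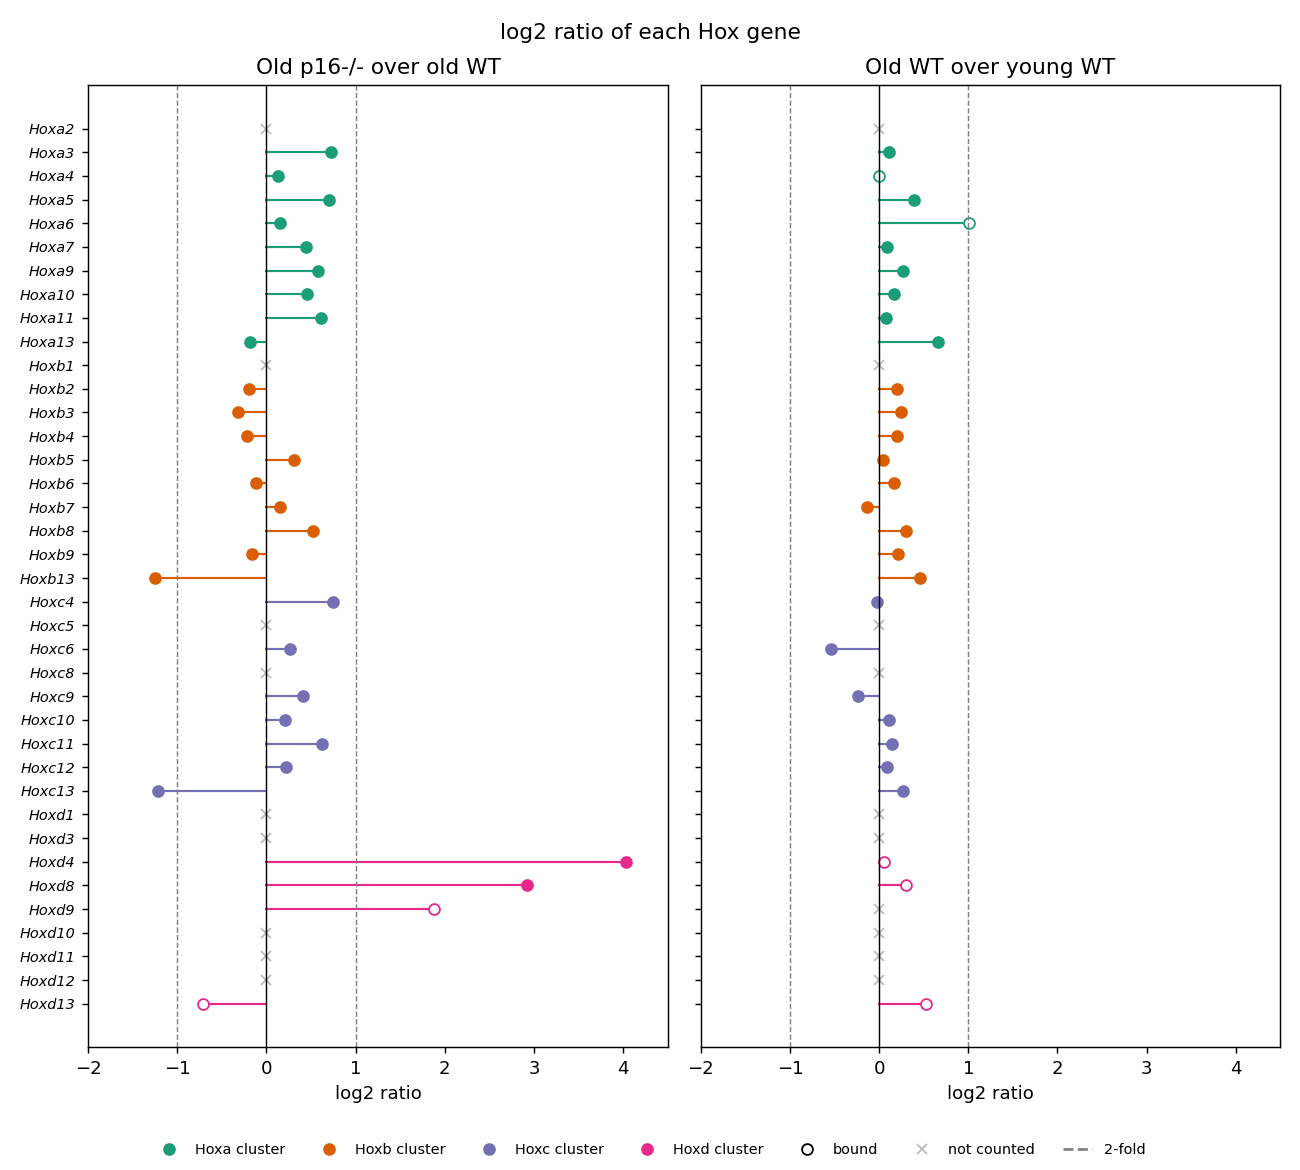
log2 ratio of each Hox gene (rows, in order of cluster and paralogue group) for old p16-/- over old WT and for old WT over young WT; open circles are bounds, crosses mark genes not counted and dashed lines mark 2-fold. For old p16-/- over old WT, Hoxd4, Hoxd8 and Hoxd9 reach 4.03, 2.92 and a bound of 1.88, while Hoxb13 and Hoxc13 lie at -1.25 and -1.21. For old WT over young WT, only Hoxa6 touches the 2-fold line, as a bound of 1.01.

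In the Hoxd cluster, Hoxd4, a group 4 gene with a retinoic acid response in the hindbrain of mouse embryos, had a signal of 902 on old p16-/-, against 55.6 on old WT and 26.6, not well above background, on young WT. Its log2 ratio for old p16-/- over old WT was 4.03 (16.3-fold), which placed it 30th from the top among 14695 genes. Hoxd8, of group 8, had 499 on old p16-/-, against 66.1 on old WT and 38.1, not well above background, on young WT. That is a log2 ratio of 2.92 (7.59-fold). Hoxd9, which patterns the lumbar region and the proximal limb with its group 9 paralogues, had 131 on old p16-/- and was not well above background at 21.1 on old WT and 14.2 on young WT. Counted only through old p16-/-, it had a bound of 1.88 (3.69-fold) for old p16-/- over old WT. All 3 were highest on old p16-/-.

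Hoxd13, which shapes digits and the genital bud, read 30.1 on old p16-/-, against 77.0 on old WT and 31.4 on young WT. It was above background on old WT alone, with bounds of -0.71 for old p16-/- over old WT and 0.53 for old WT over young WT. Because it was counted only through old WT, the signs of these bounds were set by the filter. The 5 other Hoxd genes had signals between 7.86 and 16.7 on all arrays. By start position on chromosome 2 the order was Hoxd13, Hoxd12, Hoxd11, Hoxd10, Hoxd9, Hoxd8, Hoxd3, Hoxd4 and Hoxd1. This puts Hoxd3 before Hoxd4, against their paralogue numbers. A start position does not give the extent of a gene, so it does not place Hoxd3, which was at background, between Hoxd8 and Hoxd4. Hoxd3os1, a noncoding RNA of this cluster, read 49.5 on old p16-/-, against 9.50 on old WT and 14.9 on young WT, and was not called above background on any.

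Each of these 4 Hoxd genes rests on 1 probe spotted once, and single spots can read high by themselves. Among replicate spots of dim probes, 74 of 1410 on old p16-/-, 81 of 1290 on old WT and 66 of 1390 on young WT were called above background, and the brightest of them reached 870, 794 and 694. Hoxd4 on old p16-/- (902) lay just above that range, and Hoxd8 and Hoxd9 lay inside it. The range includes spots marked as outliers, whereas the Hox values leave marked spots out, so the comparison is not like for like. How many of the dim probes' spots reached the signals of Hoxd8 or Hoxd9 was not counted. Hoxb1, a hindbrain gene, shows such a spot among its 10. Its 9 unmarked spots read 9.56 to 13.9 on old p16-/-, 7.22 to 10.6 on old WT and 11.2 to 16.4 on young WT, where the spot marked as an outlier read 137. Without the marked spots the gene was not above background on any array.

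Among the counted Hoxb genes, the posterior Hoxb13 was apart from the rest. Hoxb13, expressed in the tail bud and distal gut, where its loss in mice gives a longer tail, had a signal of 13187 on old p16-/-, against 31517 on old WT and 23776 on young WT. It was lowest on old p16-/- and highest on old WT, with a log2 ratio of -1.25 for old p16-/- over old WT (2.38-fold lower) and 0.46 for old WT over young WT. Hoxb8, which acts in blood precursors, stood at 1825 on old p16-/-, 1282 on old WT and 1078 on young WT, ratios of 0.52 and 0.30. Its probe was spotted once, so it has no spread of its own.

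The 7 other counted Hoxb genes were close on all 3 arrays. Hoxb4, known for expanding blood stem cells, had 2613 on old p16-/-, 3060 on old WT and 2768 on young WT, and Hoxb2, which acts in the hindbrain, had 1422, 1638 and 1482. Hoxb3 had 611 on old p16-/-, 768 on old WT and 673 on young WT. The anterior genes Hoxb2, Hoxb3 and Hoxb4 thus lay below 0 for old p16-/- over old WT (-0.20, -0.32 and -0.22), although a further probe of Hoxb3 gave 0.00. Hoxb5 had 865, 704 and 708 on old p16-/-, old WT and young WT, a ratio of 0.30 between the old arrays. Hoxb6 had 4298 on old p16-/-, 4703 on old WT and 4352 on young WT, and Hoxb7 had 4717, 4259 and 4857. Their ratios were -0.12 and 0.16 for old p16-/- over old WT. Hoxb9, a thoracic gene, had 6566 on old p16-/-, 7388 on old WT and 6588 on young WT, a ratio of -0.16.

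In the Hoxc cluster the group 13 gene again lay apart. Hoxc13, which hair and nail formation require, had 1081 on old p16-/-, against 2523 on old WT and 2180 on young WT. Its log2 ratio was -1.21 for old p16-/- over old WT (2.32-fold lower) and 0.26 for old WT over young WT. Its neighbours did not share this. Hoxc12 had 325 on old p16-/-, 281 on old WT and 273 on young WT, a ratio of 0.22 between the old arrays, and Hoxc11 had 1894, 1237 and 1163, a ratio of 0.62. Hoxc11 was highest on old p16-/- and nearly level between old and young WT (0.14).

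Hoxc10, a lumbar motor neuron gene, had 1019 on old p16-/-, 885 on old WT and 852 on young WT (0.21 between the old arrays). Hoxc9, its thoracic counterpart, had 2413 on old p16-/-, 1828 on old WT and 2224 on young WT, ratios of 0.41 for old p16-/- over old WT and -0.23 for old WT over young WT. Old WT was the lowest of the 3 arrays for both Hoxc9 and Hoxc6. Hoxc6 had 1879 on old p16-/-, 1571 on old WT and 2358 on young WT. Its ratio for old WT over young WT, -0.53, was the lowest of any Hox gene in that comparison, and that between the old arrays was 0.27. Hoxc4 had 379 on old p16-/-, 227 on old WT and 240 on young WT, and its 0.75 was the highest ratio for old p16-/- over old WT outside the Hoxd cluster. Hoxc5 and Hoxc8 were not above background, with signals between 8.73 and 42.0.

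Of the 9 counted Hoxa genes, 8 were above 0 for old p16-/- over old WT (beside the 56.0% of all genes given above) and none reached 2-fold. Hoxa11, which patterns the forearm and the uterus, was spotted 10 times per array and so has the firmest values. Its spots read 4459 to 5266 on old p16-/-, against 2938 to 3432 on old WT and 2930 to 3350 on young WT, with means of 4832 ± 275, 3186 ± 160 and 3135 ± 122 (SD over 10 spots of 1 array). No spot of old p16-/- overlapped with the other arrays, while old WT and young WT overlapped almost wholly. These signals are not scaled between arrays, and how many of the 399 probes with 10 spots did likewise was not counted. The log2 ratios of Hoxa11 were 0.61 for old p16-/- over old WT and 0.07 for old WT over young WT. The SD of its log2 signal between spots was 0.0816, 0.0721 and 0.0561 on old p16-/-, old WT and young WT. This spread is within arrays and says nothing of the spread between animals or cultures. Hoxa11os, the antisense RNA at the same locus, matched by its own accession, had 15418 on old p16-/-, 10570 on old WT and 9372 on young WT (0.55 and 0.23).

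**Figure D3:**
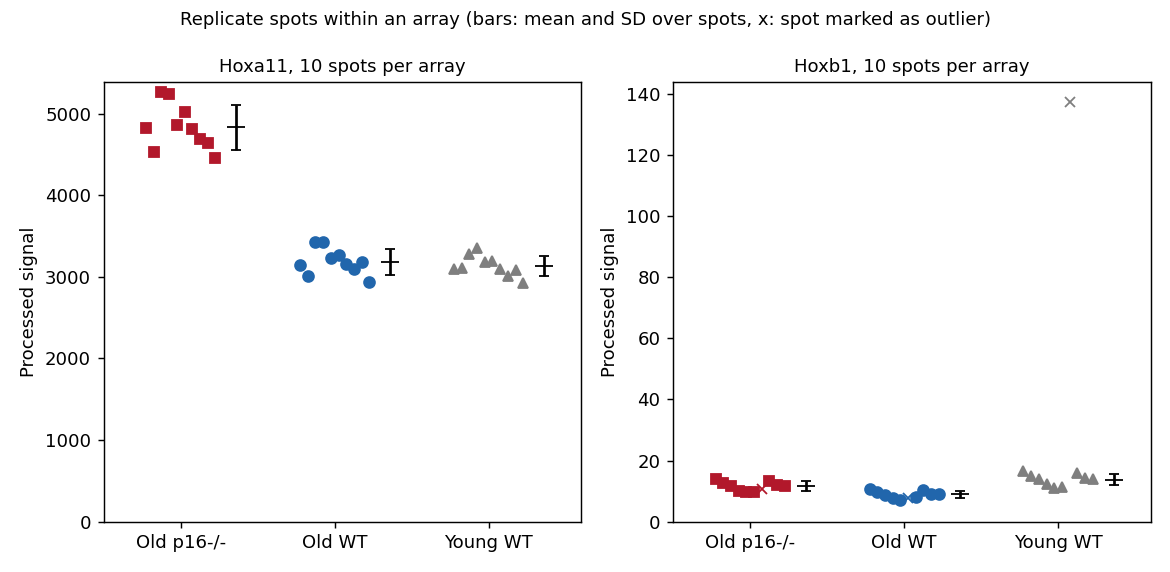
Processed signal (linear axis) of the 10 spots of Hoxa11 and of Hoxb1 on the old p16-/-, old WT and young WT arrays, with the mean and SD over unmarked spots as bars and marked spots as crosses. All Hoxa11 spots of old p16-/- (4459 and higher) lie above those of the other arrays, and 1 marked Hoxb1 spot on young WT reads 137 while the others stay at 16.4 or lower.

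Among the anterior Hoxa genes, Hoxa3, needed for the thymus and parathyroid, had 394 on old p16-/-, against 241 on old WT and 230 on young WT (0.72 between the old arrays). Hoxa5, needed for lung development, had 280 on old p16-/-, 173 on old WT and 136 on young WT, ratios of 0.70 for old p16-/- over old WT and 0.39 for old WT over young WT. Both were highest on old p16-/-. Hoxa4 was faint, at 50.2 on old p16-/-, 46.2 on old WT and 42.9, not above background, on young WT (0.13 between the old arrays). Hoxa6 had 122 on old p16-/- and 110 on old WT, against 56.9, not above background, on young WT. For old WT over young WT it had a bound of 1.01 (2.01-fold), with 0.16 between the old arrays. The ratio for old WT over young WT was under 2-fold with quantile normalization (0.94), cyclic loess (0.97), the array median (0.96) and normexp (0.56). Hoxa2 read 28.4, 24.9 and 13.4 on old p16-/-, old WT and young WT, not above background.

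Hoxa7 had 4837 on old p16-/-, 3584 on old WT and 3503 on young WT, a ratio of 0.44 between the old arrays and 0.08 between the WT arrays. Hoxa9, a regulator of blood progenitors, had 326 on old p16-/-, 219 on old WT and 189 on young WT, ratios of 0.58 and 0.26, and its other probe gave 0.42 and 0.34. Hoxa10, which acts in the uterus and lumbar spine, had 1134 on old p16-/-, 832 on old WT and 770 on young WT, ratios of 0.45 and 0.16. These 3 genes had the same order of arrays, with old p16-/- highest. Hoxa13, needed for digits and the urogenital tract, did not: it had 277 on old p16-/-, 316 on old WT and 207 on young WT, a ratio of -0.18 between the old arrays and 0.66 between the WT arrays. Its other probe read 47.2 on old p16-/-, 60.7 on old WT and 31.0 on young WT and was above background on old WT alone.

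Read by paralogue group, the 3 members of group 13 measured on all arrays lay below 0 for old p16-/- over old WT (Hoxa13 at -0.18, Hoxb13 at -1.25 and Hoxc13 at -1.21). They lay above 0 for old WT over young WT (0.66, 0.46 and 0.26), a comparison that shares the old WT array. For old p16-/- over young WT they were split, with Hoxa13 at 0.48, Hoxb13 at -0.79 and Hoxc13 at -0.95. Hoxd13 was counted only through old WT, where it was high, so its direction adds nothing. In group 9 the measured genes were also split between the old arrays, with Hoxa9 at 0.58, Hoxc9 at 0.41 and Hoxb9 at -0.16. Groups 10 and 11 had 2 genes each above 0, with medians of 0.33 and 0.61. This reading by single groups was made after the values were seen.

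**Figure D4:**
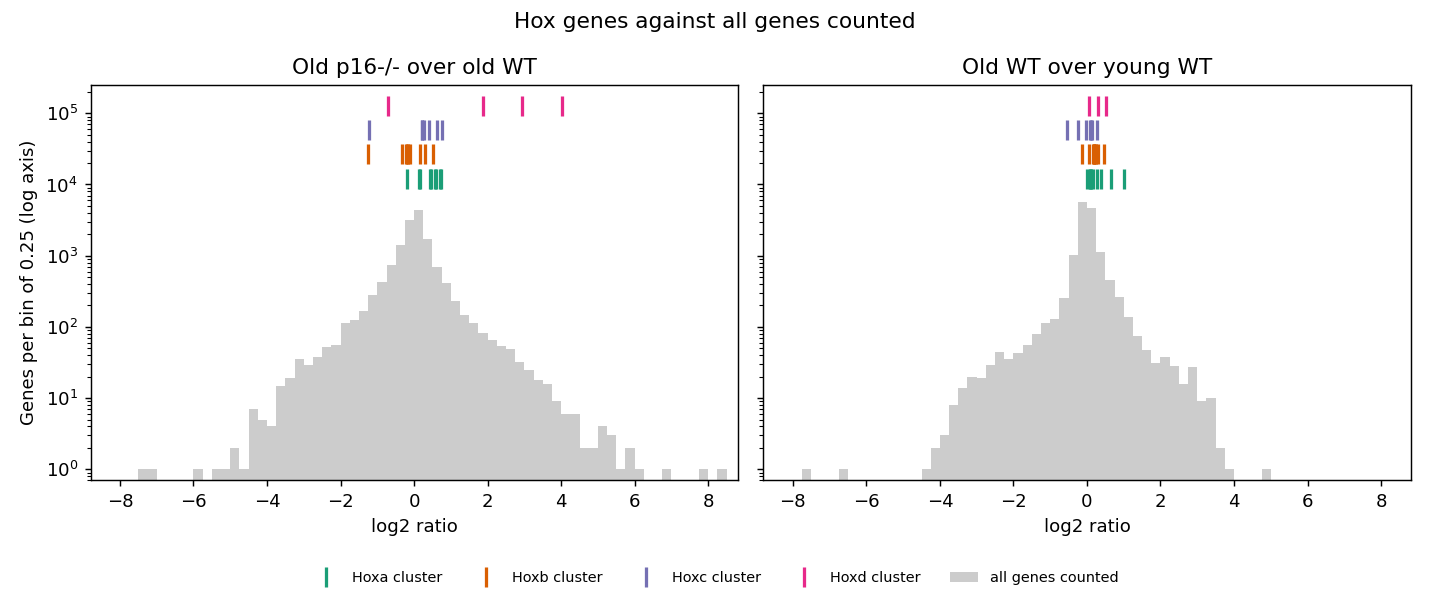
Number of genes (log axis) in bins of 0.25 of the log2 ratio for all genes counted (grey bars) with a tick for each counted Hox gene, in 1 row per cluster, for old p16-/- over old WT and old WT over young WT; the height of a row carries no value. The Hoxa ticks lie mostly right of 0 (median 0.45) and the Hoxb ticks around 0 (median -0.16) in the left panel, where Hoxd4 at 4.03 lies furthest out, and all rows gather near 0 in the right panel.

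Between old WT and young WT, 28 Hox genes were counted, 5 of them as bounds. Hoxa6 was at least 2-fold higher on old WT (1 gene, beside 2.89% of 14550 genes counted) and 0 were at least 2-fold lower (beside 3.22%). At a log2 ratio of 0.5 or more stood Hoxa6, Hoxa13 and Hoxd13 (3 genes, beside 7.88%), and at -0.5 or less stood Hoxc6 (1, beside 5.88%). The median was 0.16, against -0.01 over all genes. Of the 23 Hox genes measured on both arrays, 19 lay above 0 (82.6%) and 4 below, beside 5942 above (44.9%) and 7280 below of 13222 genes. By cluster the medians were 0.16 for Hoxa, 0.20 for Hoxb and 0.09 for Hoxc, which turned to -0.045 over the 4 Hoxc genes that reached a signal of 1000. The 3 Hoxd values are all bounds that passed only through old WT, and with no filter and no bounds the median of the 9 Hoxd genes was -0.54. With no replicate, ratios of this size cannot be set against the spread between animals. Old WT and young WT also differed in sex-linked expression, given below, and donor age cannot be told apart from it.

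Between old p16-/- and young WT, which shares an array with each comparison above, 28 Hox genes were counted, again with 5 bounds. Hoxa5 (2.14-fold), Hoxa6 (a bound of 1.16), Hoxd4, Hoxd8 and Hoxd9 (bounds of 4.08, 3.23 and 1.30) were at least 2-fold higher on old p16-/- (5 genes, beside 6.36% of 14283), and 0 were at least 2-fold lower (beside 6.95%). At 0.5 or more stood 13 (beside 13.4%) and at -0.5 or less stood Hoxb13 (-0.79) and Hoxc13 (-0.95) (beside 13.9%). The median was 0.41, against 0.03 over all genes, and 0.32 over the 23 measured on both arrays.

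Among the partners of Hox proteins, none of the 8 counted TALE cofactors (of 9) was 2-fold higher and 1, Pknox2, was lower for old p16-/- over old WT. Pknox2 had 56.9 on old p16-/-, against 180 on old WT and 305 on young WT, ratios of -1.65 for old p16-/- over old WT and -0.71 for old WT over young WT. Pbx3 had 2933 on old p16-/-, 2876 on old WT and 3453 on young WT (0.04 and -0.21). Meis1 and Meis2 lay at 0.31 and 0.50 for old p16-/- over old WT, and Pbx4 was not above background. The list's medians were 0.05 and -0.06.

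Of 17 upstream and tail patterning factors, 9 were counted for old p16-/- over old WT (median -0.28, 0 higher and 1 lower at 2-fold) and 10 for old WT over young WT (median 0.01, 0 higher and 1 lower). The lower one between the old arrays was Aldh1a2, which makes retinoic acid, with 60 on old p16-/-, against 288 on old WT and 179 on young WT (-2.25, and 0.74 for old WT over young WT). Of the retinoic acid receptors, Rara lay at -0.36, Rarb at 0.77 and Rarg at 0.16 for old p16-/- over old WT. The lower one for old WT over young WT was T (brachyury), the tail bud mesoderm factor. It read 10.7 on old p16-/- and 18.7 on old WT, not above background, against 234 on young WT. For old WT over young WT it had a bound of -2.66, and its young WT signal lies in the range of stray spots, which includes marked spots. Cdx1, Cdx2 and Cdx4, direct activators of Hox genes in the embryo, Wnt3a, Cyp26a1, Nr6a1 and Lin28b stayed at background on all 3 arrays. Gli3, a repressor of 5′ Hoxd genes in limb buds, and the RNA-binding gene Lin28a lay at 0.12 and -0.42 for old p16-/- over old WT.

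Of 23 chromatin regulators, 22 were on the array and 21 counted, and 0 of them were 2-fold apart. Their median for old p16-/- over old WT was 0.22, against 0.03 over all genes counted, and so lay near the 0.27 of the Hox genes. For old WT over young WT it was -0.03, against -0.01 over all genes. Ezh2, the Polycomb histone methyltransferase, had 3112 on old p16-/-, 2024 on old WT and 2633 on young WT (0.63 and -0.33). Its partners Suz12 and Eed lay at 0.46 and 0.06 between the old arrays, with Ezh1, the other methyltransferase, at 0.30 and Phc2 at -0.16. Ring1, a Polycomb ubiquitin ligase subunit, was the lowest, with 353 on old p16-/-, against 645 on old WT and 659 on young WT (-0.86).

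Genes that flank the clusters had medians of 0.18 for old p16-/- over old WT and -0.19 for old WT over young WT (13 counted of 16). Over all genes counted these medians were 0.03 and -0.01. Beside the Hoxd cluster, Evx2 was not above background on any array, and Lnpk, Mtx2 and Hnrnpa3 lay at -0.23, 0.18 and 0.36 between the old arrays. None of them came near the ratios of Hoxd4 and Hoxd8. The 2 flanking genes at 2-fold lie beside the Hoxb cluster: Calcoco2 was higher on old p16-/- (112, against 42.6 on old WT and 63.6 on young WT, 1.40) and Skap1 lower (238, against 523 on old WT and 280 on young WT, -1.13).

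Several features of the cultures moved with these comparisons, and their part in the Hox values was not tested. The 10 markers of fibroblasts, the labelled cell type, were above background on all arrays, and 3 of them were at least 2-fold apart between the old arrays. Thy1 read 3287 on old p16-/-, against 52045 on old WT and 69467 on young WT (-3.98). Pdgfra and Fap were higher, at 2682 and 1668 on old p16-/-, against 884 and 587 on old WT and 651 and 450 on young WT. The summed signal of 10 macrophage markers was 2702 on old p16-/-, 7050 on old WT and 22214 on young WT. At least 2-fold lower were 7 of 10 for old p16-/- over old WT (beside 6.51% of all genes counted) and 8 of 9 for old WT over young WT (beside 3.22%). The 7 were not above background on old p16-/-. They were counted only through old WT, so their bounds could not lie above 0. Ptprc went the other way between the old arrays, at 89.9 on old p16-/- against 35.9, not above background, on old WT. Its bound of 1.33 was counted only through old p16-/-. On that array Csf1r read 1520 and Cd14 read 971. The summed signal of 8 melanocyte and Schwann cell markers was 17382, 11649 and 6726 on old p16-/-, old WT and young WT, and Dct was not above background. Of 8 pluripotent cell markers, Pou5f1, Zfp42 and Esrrb were not above background on any array. Nanog, Dppa5a, Lin28a and Fut4 were above background on all 3 arrays, and Sox2 on old p16-/- alone (72.8). For old p16-/- over old WT, Dppa5a lay at -1.25, and Sox2, counted only through old p16-/-, had a bound of 1.04. In such bulk RNA, fewer cells of a type and less RNA per cell cannot be told apart. The Y-linked genes Eif2s3y and Ddx3y were not above background on the old arrays and read 6819 and 3949 on young WT, while Xist was above background on the old arrays alone, so in comparisons with young WT donor age and sex-linked expression cannot be told apart. Cdkn2a read 28065 on old p16-/-, against 65464 on old WT and 62705 on young WT. Nothing in the labels or files places its probe relative to the deletion, so it is no check of the genotype.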

How the data were processed

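Total RNA of 3 groups was measured on 1 array each (n = 1). Spots were quantified by the authors in Agilent Feature Extraction 11.5.1.1, per the file headers. Its processed signal, a linear intensity in the deposited files, is background-subtracted and not scaled between arrays. A deposited table for the whole series repeats these intensities, equal within a tolerance of 0.0001 for 39030 of 39030 probes spotted once, with no log transformation or centring, and column medians of 132, 135 and 137 for old p16-/-, old WT and young WT. The 3 arrays shared 1 slide and 1 scan time. Control spots (1377) and spots marked as outliers (267, 246 and 246 on old p16-/-, old WT and young WT) were left out, and no spot was saturated. Of the 43020 spots other than controls, marked ones included, 58.4%, 61.6% and 57.4% were well above background.

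Each probe's log2 signals were averaged over its unmarked spots and lowered by the 75th percentile of the array (Python 3.11.15, numpy 2.4.6, pandas 2.3.3). That percentile was taken over all spots other than controls, marked ones included. Accessions matched to a RefSeq gene table (GRCm38.p6) named 27508 of 39429 probes. Probes were designed on mm9, per the file headers, so that table gave names, chromosomes and gene order, and coordinates are those of the RefSeq promoter windows. The brightest probe stood for each gene. Where 1 of 2 arrays was above background, the bright level was set against the dim probe's level or, if higher, the lowest level called above background on the dim array (signals of 46.9, 35.7 and 55.4), and a bound under 1-fold was entered as 0. The calculation recovered known changes in simulated data.

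The members and lists were chosen with earlier results of these data known. All 38 members are named, and of other lists the genes at least 2-fold apart and up to 4 others of the highest mean signal. Genes listed as flanking a cluster, such as Evx2 and Lnpk, could be named as well. A few further list genes (Pbx4, Rarb, Ezh2, Suz12, Ring1, marker genes and upstream factors at background) were chosen after their values were seen. Alternatives used limma 3.58.1 in R 4.3.3 for normalization. Precision is limited by the number of arrays.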

Additional observations from a re-analysis of the deposited data

How the results depend on the processing

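No paired analysis was possible because each group has 1 array, and for the same reason no array could be left out. Each alternative changed 1 choice, except that the run with no filter also dropped the bounds and the normexp run changed the signal column with the background correction. No Hox value that was at least 2-fold apart changed sign. For old p16-/- over old WT, Hoxb13 ranged from -1.34 to -1.19 and Hoxc13 from -1.26 to -1.15 over 11 alternatives. Hoxd4 ranged from 2.81 to 4.10, Hoxd8 from 2.10 to 3.0 and Hoxd9 from 1.11 to 2.64, the lowest values coming with normexp background correction. Among genes reaching a signal of 1000 on 1 of the arrays, 0 Hox genes were at least 2-fold higher, because all 3 have lower signals, and with no filter the median was 0.37. For old WT over young WT the 1 gene at least 2-fold higher, Hoxa6, became 0 with quantile normalization, cyclic loess, the array median, both arrays above background, a signal of 1000, or normexp, and there were 3 with no filter and no bounds. For old p16-/- over young WT the 5 higher genes became 1 with both arrays above background, 0 at a signal of 1000 and 2 with normexp, and the median became 0.32 with both arrays above background, 0.30 with no filter and 0.055 at a signal of 1000. At a log2 ratio of 0.5 in place of 2-fold the higher and lower counts were 10 and 3 for old p16-/- over old WT, 3 and 1 for old WT over young WT, and 13 and 2 for old p16-/- over young WT. The cluster medians for old p16-/- over old WT ranged from 0.41 to 0.52 for Hoxa, -0.22 to -0.10 for Hoxb and 0.22 to 0.33 for Hoxc, but from 0.41 to 3.48 for Hoxd, where few genes are counted. For old WT over young WT they ranged from -0.045 to 0.12 for Hoxc and from -0.54 to 0.38 for Hoxd, and for old p16-/- over young WT from -0.19 to 3.38 for Hoxd. The median of groups 1 to 4 ranged from -0.21 to 0.35 for old p16-/- over old WT. Apart from the signal filter, the cause of these shifts was not tested. Normexp ran on median signals, since the files used hold no mean signal column, and this and the size of 0.5 were chosen after seeing the data. Signals under 1000 limit the Hoxd values, which rest on probes spotted once.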
